A study of Mus musculus with 6 samples.

Results

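The 34 genes described here encode integrins, laminins and nidogens, the receptors and core proteins by which cells hold to the basement membrane and the surrounding matrix. They are every gene whose symbol names an integrin alpha or beta chain, a laminin chain or a nidogen in the authors' deposited table, 34 of 14472 genes. The set holds 14 integrin alpha genes, 8 integrin beta genes, 10 laminin genes and 2 nidogen genes. All 34 have a p-value, none stands on more than 1 row, and Itgad, Itgae, Itgam, Itgax and Lama1 were not analysed here. RNA came from the mouse dedifferentiated liposarcoma line mLPS1, grown from a malignant tumour of the fat lineage, in 3 libraries labelled NICD knockout (titles p34, p36 and p39) and 3 labelled wild type (p35, p37 and p40). NICD is the intracellular domain of a Notch receptor, which acts in the nucleus with the DNA-binding protein Rbpj. The labels name a knockout, whereas the series title speaks of over-expressed Notch and the design text of dNICD cells. The sources used here do not say how the altered line was made or whether it is a single clone. Separate cultures or animals within a genotype are not named in the labels. The p-values therefore reflect only how far these libraries differ, which may be technical.

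Integrins are receptors made of an alpha and a beta chain that span the membrane, bind matrix proteins or other cells outside and reach actin through talin inside. Laminins are cross-shaped trimers of an alpha, a beta and a gamma chain, and they form the first network of a basement membrane. Nidogens bind the laminin gamma chain and collagen IV and so link both networks. Mesenchymal cells and vessel wall cells hold to collagen, fibronectin and laminin mainly through integrins that share the beta 1 chain.

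The data are the authors' values for a single comparison, NICD knockout over wild type, and values of single libraries and their depths were not used here. For each gene they give the normalised count averaged over all libraries, the log2 ratio of both genotypes (its log2 fold change), the standard error (SE) of that ratio and a p-value adjusted over all genes. A gene is said to have risen or fallen at an adjusted p under 0.05. A gene's level in each genotype was derived from that average and the log2 ratio, taking 3 libraries per genotype as given, and intervals are 95% Wald intervals. In the authors' deposited table the median SE was 0.16 for 10479 genes averaging 100 or more (called expressed below) and 0.77 for the other 3991. Nrarp, a direct Notch target used here to check the labels, fell 79.3-fold, with a fitted level of 126.6 in NICD knockout and 10040 in wild type cells in the authors' deposited table. In bulk RNA such as this, fewer cells of a type and less RNA per cell cannot be told apart.

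Integrin alpha genes were mostly lower in the knockout, laminin genes were higher or did not pass, and both nidogens were lower. Of the 34 members, 13 rose and 15 fell by the authors' deposited table, and 6 did not pass. That is 82.4% of the members called, beside 50.5% of all 14470 genes tested; 38.2% rose, beside 25.4% of all genes, and 44.1% fell, beside 25.1% of all genes. Among the 14 integrin alpha genes 11 fell and 3 rose, and among the 8 beta genes 5 rose and 2 fell (authors' deposited table). The median log2 ratio was -0.20 over the members and 0.02 over all genes in the authors' deposited table. Level divided the family: of the 22 members with a mean of at least 100, 5 rose and 13 fell by the authors' deposited table. Of all genes at that level 54.6% were called, 24.4% as higher and 30.2% as lower. Of the 12 members below it, 8 rose and 2 fell, where 39.7% of all such genes were called, 28.1% as higher and 11.6% as lower. A stricter test, against a change of 2-fold or less, was passed by 6 members that were higher and 9 that were lower, beside 6.43% and 4.67% of all genes (11.1% in both directions).

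**Figure D1:**
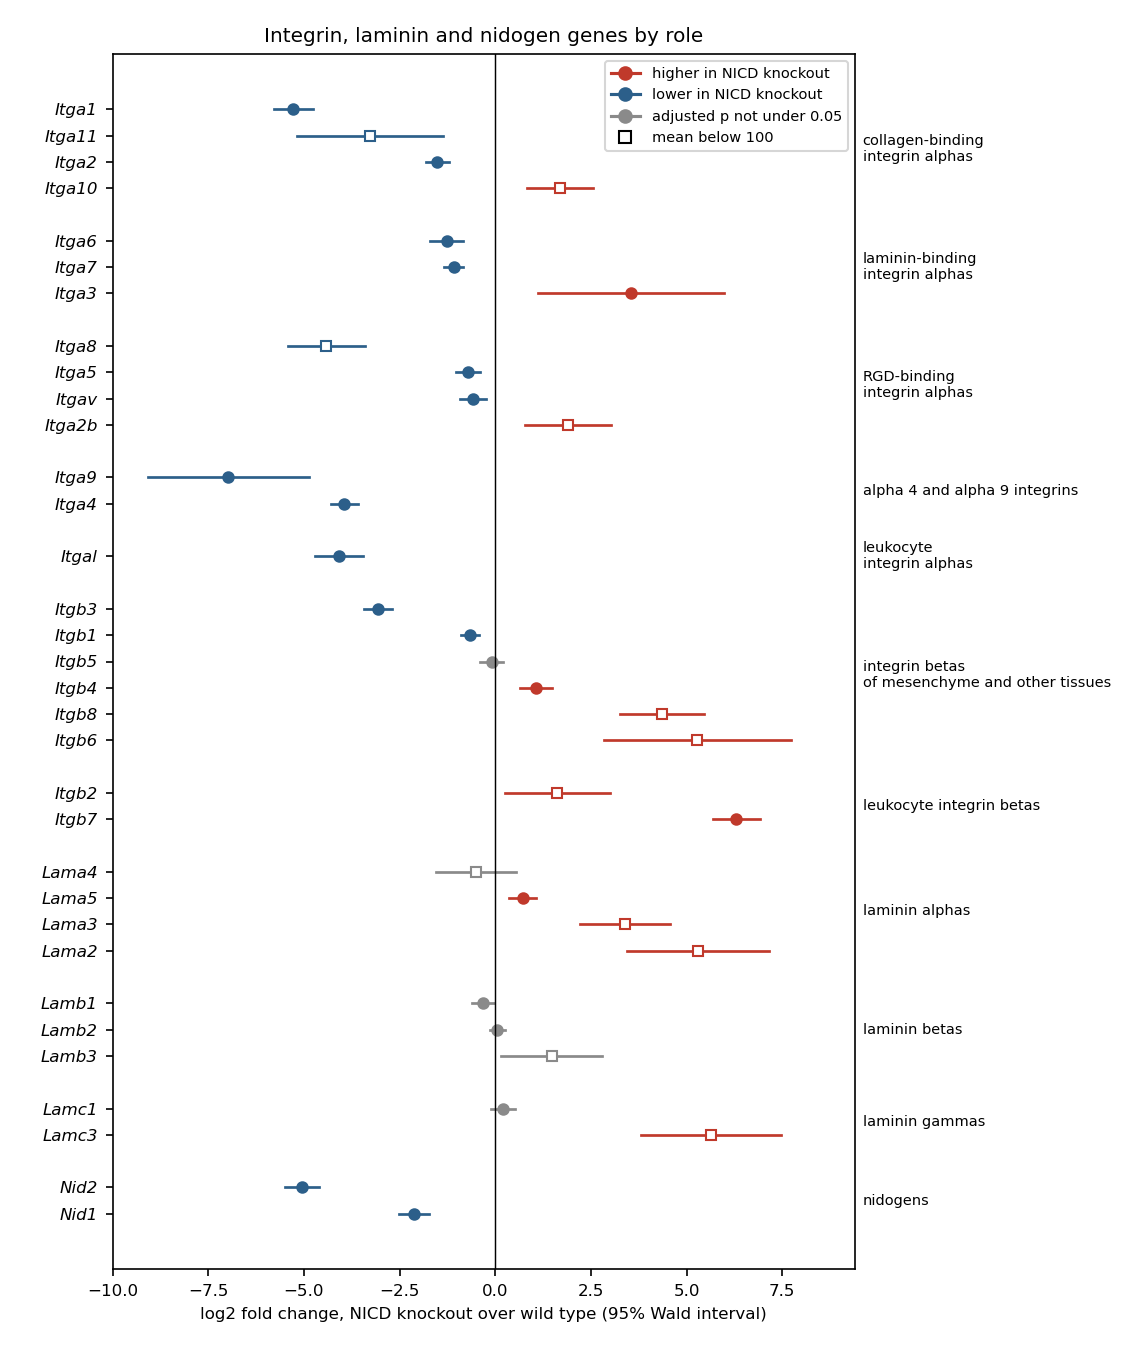
Log2 fold change of 33 of the 34 members, NICD knockout over wild type, in the authors' deposited table, grouped by role. Points are the fitted values and lines the 95% Wald intervals; red members rose, blue members fell, grey members did not pass, and open squares have a mean below 100. Integrin alpha genes lie mostly left of 0, with Itga9 at -6.98, and Itgb7 lies farthest right at 6.30.

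The proximal promoters of 4 members are shown so that they can be read next to their values. They are the genes with the steepest rise and the steepest falls among well expressed integrins, and Nid1. Nid1, the more abundant nidogen gene, was chosen because its window holds the letters marked in capitals. Each window runs from 250 bases before to 50 bases after the RefSeq transcription start in GRCm38.p6, 5′ to 3′ on the gene's strand, and capitals mark the letters TGGGAA, the core of the Rbpj binding motif, or their reverse complement TTCCCA. The authors' build is mm39, so these coordinates hold for GRCm38.p6 only. The windows are chr15:102231886-102232185 (minus strand) for Itgb7, chr9:118711442-118711741 (plus strand) for Itga9, chr13:115101915-115102214 (minus strand) for Itga1 and chr13:13437352-13437651 (plus strand) for Nid1.
Itgb7: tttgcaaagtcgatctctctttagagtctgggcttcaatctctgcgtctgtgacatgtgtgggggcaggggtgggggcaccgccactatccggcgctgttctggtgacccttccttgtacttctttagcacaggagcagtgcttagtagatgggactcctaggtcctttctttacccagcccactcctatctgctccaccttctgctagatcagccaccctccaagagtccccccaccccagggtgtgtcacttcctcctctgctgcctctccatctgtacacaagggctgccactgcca
Itga9: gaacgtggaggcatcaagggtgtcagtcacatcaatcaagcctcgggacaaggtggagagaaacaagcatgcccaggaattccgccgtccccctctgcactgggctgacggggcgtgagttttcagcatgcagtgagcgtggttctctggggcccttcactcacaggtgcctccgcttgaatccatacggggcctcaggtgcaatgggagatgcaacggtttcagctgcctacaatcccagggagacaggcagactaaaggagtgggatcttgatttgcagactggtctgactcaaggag
Itga1: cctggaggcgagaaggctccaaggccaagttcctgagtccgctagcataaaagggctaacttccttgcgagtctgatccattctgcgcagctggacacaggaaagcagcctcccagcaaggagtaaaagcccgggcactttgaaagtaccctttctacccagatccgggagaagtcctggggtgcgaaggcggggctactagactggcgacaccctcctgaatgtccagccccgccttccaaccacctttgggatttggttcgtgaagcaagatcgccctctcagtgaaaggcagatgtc
Nid1: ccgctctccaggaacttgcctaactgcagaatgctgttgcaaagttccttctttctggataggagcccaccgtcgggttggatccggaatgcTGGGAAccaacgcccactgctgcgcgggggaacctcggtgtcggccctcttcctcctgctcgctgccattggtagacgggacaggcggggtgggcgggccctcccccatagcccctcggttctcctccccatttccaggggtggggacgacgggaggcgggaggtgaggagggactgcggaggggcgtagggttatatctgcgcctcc
The 6 letters stood once in the Nid1 window, which was chosen for holding them, and in none of the other windows printed. RefSeq windows were matched for 22 members (25 windows), of which 6 windows (24.0%) in 5 members held the letters on either strand, beside 25.6% of all 32851 windows. Of these 5 members, Itga2b and Lama2 rose, Nid1 fell, and Lamb1 and Lamb3 did not pass by the authors' deposited table. The longer form GTGGGAA, which contains the shorter motif, or its reverse complement TTCCCAC stood in 6.38% of all windows and in no member window. These matches describe letters in these windows only.

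Among the alpha chains of the collagen receptors, which carry an inserted domain that grips triple-helical collagen, 3 fell and 1 rose by the authors' deposited table. Itga1 (ENSMUSG00000042284, chromosome 13) encodes the receptor chain for collagen IV found on smooth muscle and pericytes. It had a fitted level of 160.1 normalised counts in NICD knockout cells and 6184 in wild type cells, a 38.6-fold fall in the authors' deposited table (log2 ratio -5.27, SE 0.26, adjusted p = 2.03e-88). This placed Itga1 at rank 90 of 10479 expressed genes ordered from the steepest fall. Itga2 (ENSMUSG00000015533), the platelet and epithelial collagen receptor chain on the same chromosome, fell 2.85-fold, to 337.4 in the knockout against 962.1 in wild type, in the authors' deposited table (interval of the log2 fold change -1.80 to -1.22). The fibroblast collagen receptor gene Itga11 fell as well, at low values in both lines, 2.49 in the knockout and 24.0 in wild type (authors' deposited table, log2 ratio -3.27, SE 0.97). Itga10, the cartilage member of the group, rose 3.24-fold, with 60.02 in the knockout and 18.5 in wild type (authors' deposited table). The predicted gene Gm49395, which shares exons with Itga1 on the same strand, had a log2 ratio of -4.86 (SE 0.64) in the authors' deposited table, so the split of reads between them is uncertain.

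Laminin-binding alpha chains went both ways. Itga7 (ENSMUSG00000025348), the chain typical of muscle, had 1803 normalised counts in NICD knockout and 3825 in wild type cells, a 2.12-fold fall in the authors' deposited table (log2 ratio -1.08, SE 0.12, adjusted p = 2.01e-17). Itga6 (ENSMUSG00000027111), which pairs with beta 1 or with beta 4 in hemidesmosomes, had 1117 in the knockout and 2698 in wild type and fell 2.42-fold by the authors' deposited table (interval -1.70 to -0.85). Itga3 (ENSMUSG00000001507), the epithelial receptor chain for laminins with the alpha 3 or alpha 5 chain, was the member that rose, 11.8-fold, to 187.6 in the knockout against 16.0 in wild type in the authors' deposited table (log2 ratio 3.56, SE 1.24, adjusted p = 0.0103). Its interval ran from 1.12 to 5.99, and its SE was larger than that of 98.6% of the 500 genes nearest to it in the lower of both groups' fitted levels. None of these 3 genes passed the test that the change exceeds 2-fold. An exon of Mettl7b lies opposite Itga7, and Mettl7b itself did not pass by the authors' deposited table (log2 ratio -0.74, adjusted p = 0.438).

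The alpha chains that read the RGD tripeptide in fibronectin and vitronectin fell in 3 of 4 cases. Itga5 (ENSMUSG00000000555), the main fibronectin receptor chain and the most abundant alpha gene in both groups per kilobase of transcript, had 7992 normalised counts in NICD knockout and 13179 in wild type cells. That is a 1.65-fold fall in the authors' deposited table (log2 ratio -0.72, SE 0.16, adjusted p = 2.37e-05). Itgav (ENSMUSG00000027087), the vitronectin receptor chain that also takes part in the activation of latent TGF-beta, had 2898 in the knockout and 4313 in wild type, a 1.49-fold fall in the authors' deposited table (interval -0.92 to -0.23). With the median of its chromosomal neighbours (-0.24) subtracted, Itgav had -0.34 and did not pass (adjusted p = 0.102). Itga8 (ENSMUSG00000026768), a chain of smooth muscle and mesangial cells that binds nephronectin, was lower in abundance and had the steepest change of the group, 21.3-fold, at 5.998 in the knockout against 127.6 in wild type in the authors' deposited table (adjusted p = 6.24e-17). The platelet chain gene Itga2b rose 3.74-fold at low levels, 35.98 in the knockout and 9.62 in wild type (authors' deposited table).

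Itga9 and Itga4, the closely related chains that bind VCAM-1, osteopontin and tenascin as well as fibronectin splice forms, had some of the family's steepest falls. Itga4 (ENSMUSG00000027009) had 400.8 normalised counts in NICD knockout and 6155 in wild type cells, a 15.4-fold fall in the authors' deposited table (log2 ratio -3.94, SE 0.18, adjusted p = 6.22e-103). Itga9 (ENSMUSG00000039115) had 8.88 in the knockout and 1117 in wild type, a 125.8-fold fall in the authors' deposited table (log2 ratio -6.98, SE 1.07, adjusted p = 5.78e-10). It ranked 41 of 10479 expressed genes from the steepest fall, and its interval of -9.07 to -4.88 was wide for its expression, with an SE above that of 95.4% of the 500 genes of like level. Cerkl overlaps Itga4 on the opposite strand and rose at a mean of 41.6 in the authors' deposited table (log2 ratio 1.24, SE 0.36), the opposite direction to Itga4. Whether reads were counted by strand is not stated in the sources used here, so reads from such overlaps cannot be told apart.

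Chains named for leukocytes were measured in this sarcoma line as well. Of 5 such alpha genes only 1, Itgal, was tested, and it fell, while both beta genes rose. Itgal (ENSMUSG00000030830), the alpha chain of LFA-1, fell 16.8-fold, with 25.2 normalised counts in NICD knockout and 424.9 in wild type cells in the authors' deposited table (log2 ratio -4.07, SE 0.32, adjusted p = 3.49e-35). Itgb2, the only beta chain LFA-1 uses, had 19.0 in the knockout and 6.16 in wild type and rose 3.09-fold by the authors' deposited table (SE 0.70, adjusted p = 0.0420). Itgb7 (ENSMUSG00000001281, chromosome 15), the beta chain of the gut-homing receptor of lymphocytes, gave the steepest rise of all 34 members. It had 1979 normalised counts in the knockout and 25.1 in wild type, a 78.9-fold rise in the authors' deposited table (log2 ratio 6.30, SE 0.32, adjusted p = 1.75e-86), rank 67 of 10479 expressed genes from the steepest rise. Of 12 leukocyte markers, 8 were tested and 2 rose (Cd68 and Coro1a) and 2 fell, Lcp1 among them, in the authors' deposited table. Lcp1 (adjusted p = 0.0471) did not pass after centring (0.0605) or with its neighbours subtracted (0.0590). Their summed fitted level was 2435 in the knockout and 456.5 in wild type, of which the lysosomal glycoprotein gene Cd68 gave 2238 in the knockout and 179.0 in wild type. Ptprc, the pan-leukocyte antigen CD45, did not pass, at 13.7 in the knockout and 3.74 in wild type (authors' deposited table, log2 ratio 1.88, adjusted p = 0.302). The part of these markers in the integrin values was not tested.

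Beta chains of mesenchyme and other tissues differed widely in their change. Itgb1 (ENSMUSG00000025809), the shared partner of most matrix-binding alpha chains and the family's most abundant gene per kilobase in both groups, had 12005 normalised counts in NICD knockout and 18831 in wild type cells. It fell 1.57-fold by the authors' deposited table (log2 ratio -0.65, SE 0.12, adjusted p = 3.14e-07). Itgb3 (ENSMUSG00000020689), the vitronectin and fibrinogen receptor chain that pairs with alpha V, fell to 715.2 in the knockout, against 5995 in wild type, in the authors' deposited table (log2 ratio -3.07, SE 0.19, adjusted p = 1.02e-58). Itgb5 (ENSMUSG00000022817), which also pairs with alpha V, had 6781 in the knockout and 7228 in wild type and did not pass by the authors' deposited table (log2 ratio -0.09, interval -0.40 to 0.21, adjusted p = 0.654). Itgb8 and Itgb6, whose pairs with alpha V activate latent TGF-beta, rose and were low in wild type. Itgb8 (ENSMUSG00000025321) had 103.9 in the knockout and 5.07 in wild type in the authors' deposited table (log2 ratio 4.36, SE 0.56, adjusted p = 7.30e-14), while the median beside it on chromosome 12 was -0.76 and Itgb8 was at 5.12 with that subtracted. Itgb6 was fitted at 24.3 in the knockout and below 1 normalised count per library (3 over the group) in wild type by the authors' deposited table (log2 ratio 5.28, SE 1.24, interval 2.84 to 7.72, adjusted p = 8.77e-05). Itgb4 (ENSMUSG00000020758), the hemidesmosome chain, rose 2.08-fold, with 229.6 in the knockout and 110.2 in wild type, in the authors' deposited table (adjusted p = 5.06e-06). The median beside it on chromosome 11 was 0.65, and after this was subtracted Itgb4 had 0.41 and did not pass (adjusted p = 0.104).

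Read as pairs, most receptors had both chains lower or the chains in opposite directions. Of 20 textbook alpha-beta pairs whose genes were all tested, 11 had both chains lower, 8 had 1 chain higher and 1 lower, and none had both higher in the authors' deposited table. In the remaining pair, alpha V beta 5, the alpha chain fell and the beta chain did not pass. Of the 11 pairs with both chains lower, 10 share Itgb1, so they are not independent. Most of the 20 pairs hold Itgb1 or Itgav, which both fell, so those pairs could not have had both chains higher. The counts of pairs therefore largely restate the calls of these shared chains. In alpha 4 beta 7 the chains crossed over: the less abundant chain per kilobase of the longest coding transcript was Itga4 in the knockout, at 41.0, and Itgb7 in wild type, at 9.35. In alpha V beta 3 the less abundant chain per kilobase was Itgb3 in the knockout, at 123.6, and Itgav in wild type, at 611.4.

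**Figure D2:**
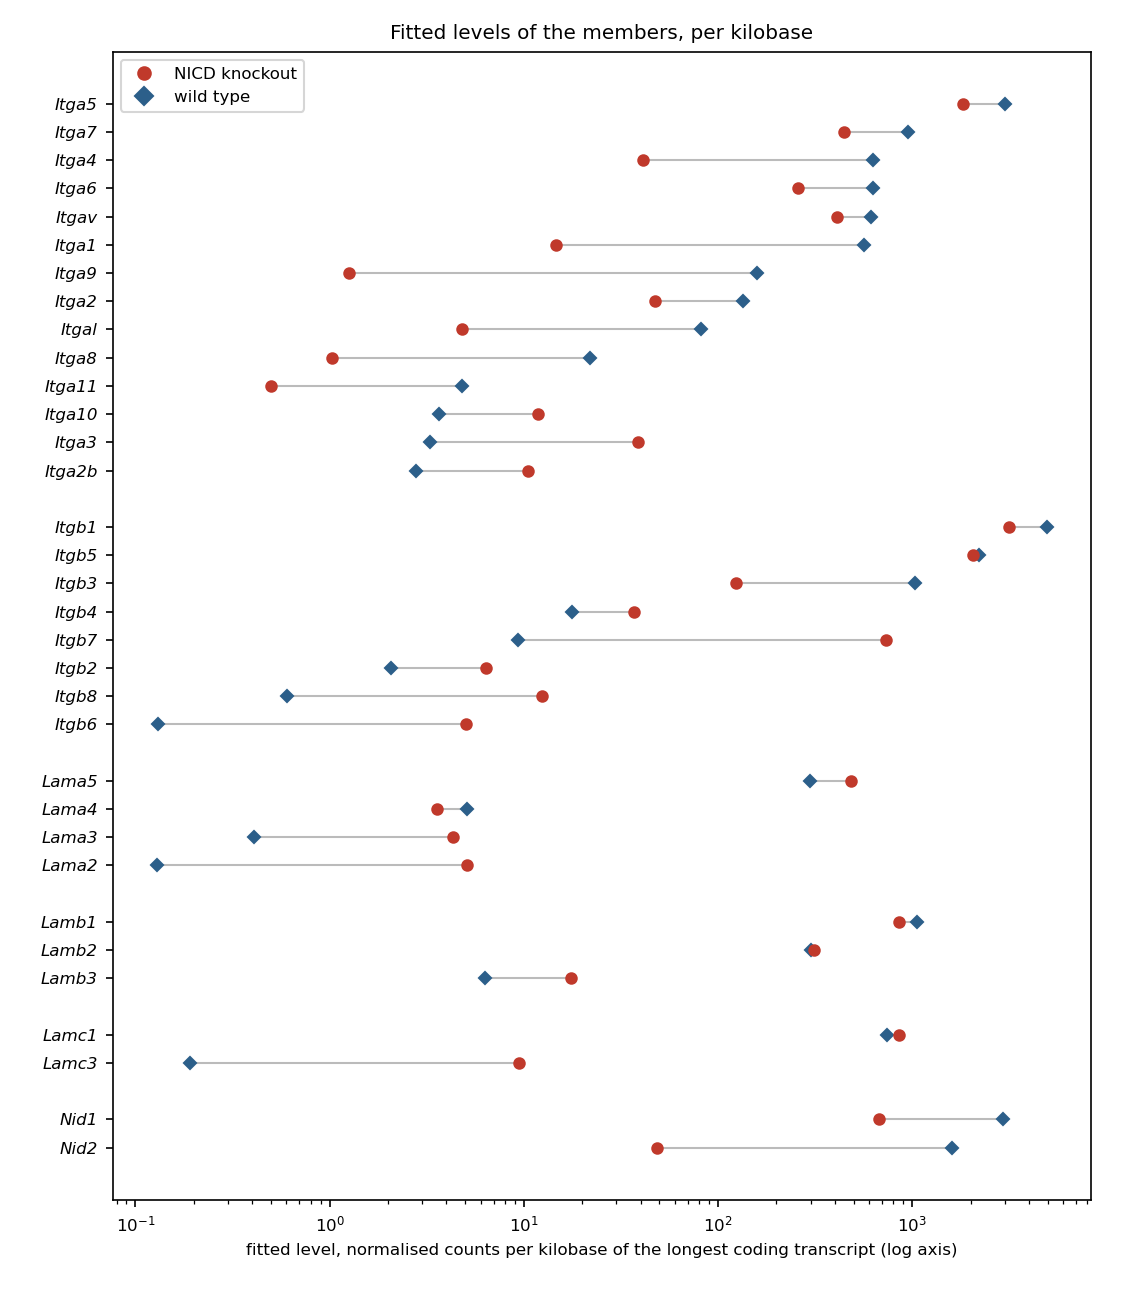
Fitted level of 33 of the 34 members in NICD knockout (red circles) and wild type cells (blue diamonds), in normalised counts per kilobase of the longest coding transcript, on a log axis, from the authors' deposited table. A grey line joins the values of a gene. Itga1 and Itga4 stood at 14.6 and 41.0 in the knockout, far below the wild type values of 563.9 and 630.2, and Itgb7 crossed in the other direction.

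Per kilobase, the integrin alpha genes summed to 3114 normalised counts in NICD knockout and 6803 in wild type cells, and the beta genes to 6135 in the knockout and 8205 in wild type. These sums carry no error, since values of single libraries were not used. Itga5 made up 58.6% of the alpha sum in the knockout and 44.2% in wild type, and Itgav 13.2% in the knockout and 8.99% in wild type. Itga4 and Itga1 made up 1.32% and 0.469% in the knockout, against 9.26% and 8.29% in wild type. Among beta chains, Itgb1 made up 51.3% in the knockout and 60.2% in wild type, and Itgb5 33.7% in the knockout and 26.8% in wild type. The share of Itgb3 was 2.02% in the knockout and 12.6% in wild type, and that of Itgb7 was 12.0% in the knockout and 0.114% in wild type. The ranking of chains thus differed between the lines below the leading Itga5, Itgb1 and Itgb5, with Itgb7 next among beta chains in the knockout and Itgb3 next in wild type.

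**Figure D3:**
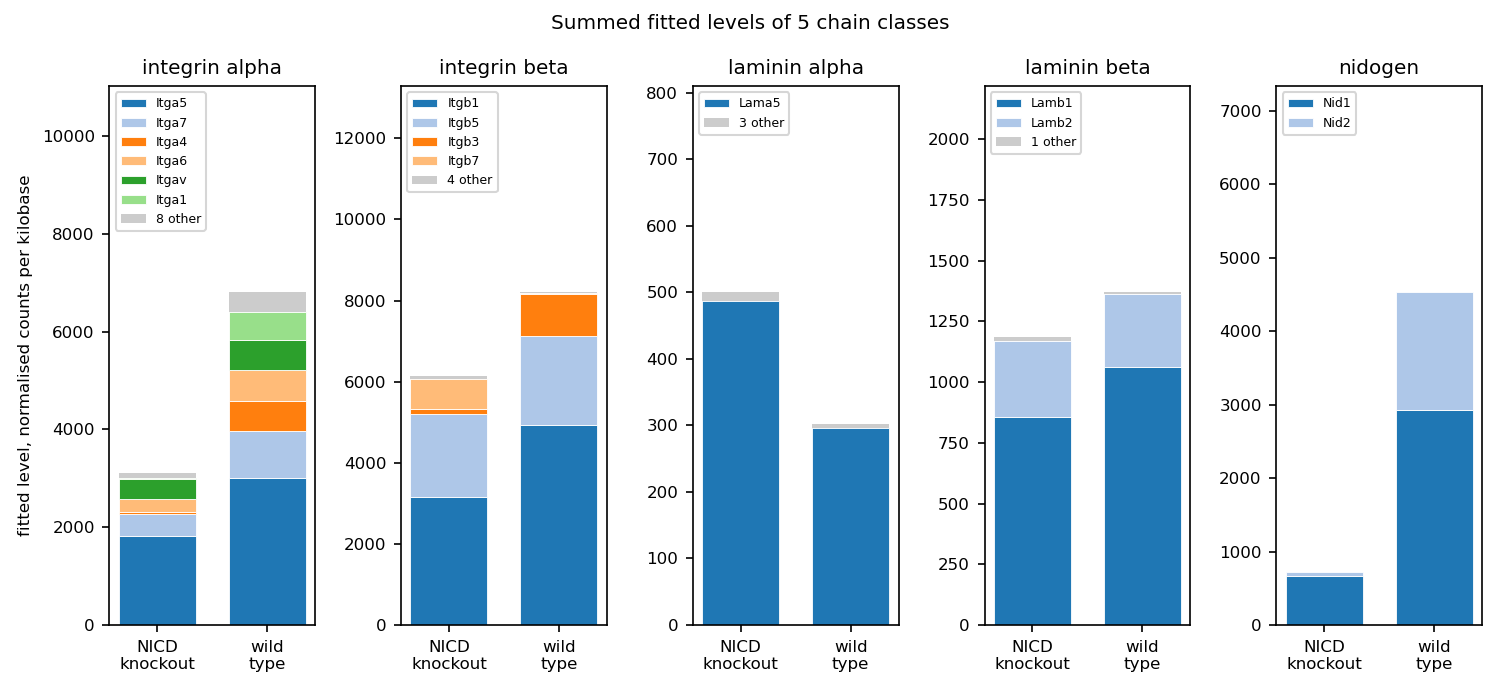
Summed fitted levels of chain classes in normalised counts per kilobase of the longest coding transcript, NICD knockout left and wild type right in each panel, from the authors' deposited table; segments are genes with a share of at least 3%, and each panel has its own axis from 0. The alpha sum was 3114 in the knockout and 6803 in wild type and the nidogen sum 721.9 and 4528, whereas the laminin beta sums were 1186 and 1370.

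No laminin gene fell. Of the 10 laminin genes tested, 5 rose and 5 did not pass by the authors' deposited table, and the median log2 ratio was 0.72. The share of laminin genes called, 5 of 10, is near that of all genes tested (50.5%). Lama5 (ENSMUSG00000015647, chromosome 2), the most widely distributed laminin alpha chain, made up 97.4% of the laminin alpha level per kilobase in NICD knockout and 98.1% in wild type cells. It had 5546 normalised counts in the knockout and 3375 in wild type, a 1.64-fold rise in the authors' deposited table (log2 ratio 0.72, SE 0.18, adjusted p = 1.88e-04). Its usual partners did not pass. Lamb1 had 4956 in the knockout and 6145 in wild type (authors' deposited table, interval -0.60 to -0.02, adjusted p = 0.0655), Lamb2 had 1757 in the knockout and 1695 in wild type (interval -0.14 to 0.24), and Lamc1 had 6524 in the knockout and 5693 in wild type (interval -0.11 to 0.51). With its neighbours' median of -0.27 on chromosome 1 subtracted, Lamc1 had 0.47 and passed (adjusted p = 0.00870). Lamb1 was the leading beta chain of both lines, at 72.2% of the laminin beta level per kilobase in the knockout, against 77.6% in wild type.

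Lama3 and Lamb3 encode the alpha and beta chains of the anchoring laminin of epithelia. Lama3 had 45.4 in the knockout and 4.31 in wild type and rose 10.5-fold by the authors' deposited table (SE 0.60, adjusted p = 1.08e-07). Lamb3 had 84.8 in the knockout and 30.6 in wild type and did not pass by the authors' deposited table (log2 ratio 1.47, SE 0.67, adjusted p = 0.0562). Lamb3 passed after centring on expressed genes (adjusted p = 0.0476) and after its neighbours were subtracted (adjusted p = 0.0150). Per kilobase, Lama3 was at 4.30 in the knockout and 0.408 in wild type, and Lamb3 at 17.4 in the knockout and 6.28 in wild type. Of 10 epithelial markers, 3 were tested, and Krt8 and Krt19 rose while Krt14 fell in the authors' deposited table. These 3 markers were thus all called, beside 50.5% of all genes tested. Their summed fitted level was 91.8 in the knockout and 46.9 in wild type, and their part in the laminin values was not tested.

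Lama2 and Lamc3, chains of the muscle and nerve laminins and of specialised basement membranes, were near the detection floor in wild type cells. Lama2 had 49.0 normalised counts in NICD knockout and 1.24 in wild type cells in the authors' deposited table (log2 ratio 5.30, interval 3.45 to 7.15, adjusted p = 1.19e-07). Lamc3 had 55.3 in the knockout and 1.12 in wild type in the authors' deposited table (log2 ratio 5.63, interval 3.80 to 7.46, adjusted p = 1.17e-08). Lama4, the alpha chain of vessel laminins, was low in both lines at 21.7 in the knockout and 30.8 in wild type and did not pass by the authors' deposited table (interval -1.54 to 0.54). No muscle marker rose among the 3 of 7 tested, of which Des and Acta1 fell, and none of the 3 of 6 Schwann cell markers tested passed in the authors' deposited table. The shares called were 66.7% for muscle and 0.0% for Schwann cells, beside 50.5% of all genes tested. The summed fitted level was 759.7 in the knockout and 1095 in wild type for the muscle markers and 69.2 in the knockout and 45.3 in wild type for the Schwann cell markers, and their part in the laminin values was not tested.

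Both nidogen genes fell, and the balance between them differed between the lines. Nid1 (ENSMUSG00000005397, chromosome 13) had 4101 normalised counts in NICD knockout and 17820 in wild type cells, a 4.34-fold fall in the authors' deposited table (log2 ratio -2.12, SE 0.20, adjusted p = 7.68e-26). Nid2 (ENSMUSG00000021806, chromosome 14) had 237.0 in the knockout and 7812 in wild type, a 32.97-fold fall in the authors' deposited table (log2 ratio -5.04, SE 0.23, adjusted p = 2.75e-105). Nid2 made up 6.73% of the nidogen level per kilobase in the knockout and 35.4% in wild type. The summed nidogen level per kilobase was 721.9 in the knockout and 4528 in wild type, while that of Lamc1, whose protein nidogens bind, was 856 in the knockout and 746.9 in wild type. The neighbours of Nid1 had a median of 0.43, opposite to its own change. Rtraf overlaps Nid2 on the opposite strand and did not pass by the authors' deposited table (log2 ratio 0.07, SE 0.11).

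To show how far a change was that of its chromosomal surroundings, each member was set beside the median of up to 20 expressed genes around it. The 34 members lie on 14 chromosomes, and their neighbours' medians ran from -0.76 beside Itgb8 to 0.65 beside Itgb4. Of the 28 members that rose or fell, 15 had a change opposite in sign to that median. Of the 28 calls, 26 were kept after the median was subtracted, and those lost were Itgav and Itgb4. Neither count was made over all genes, so both only describe these members.

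**Figure D4:**
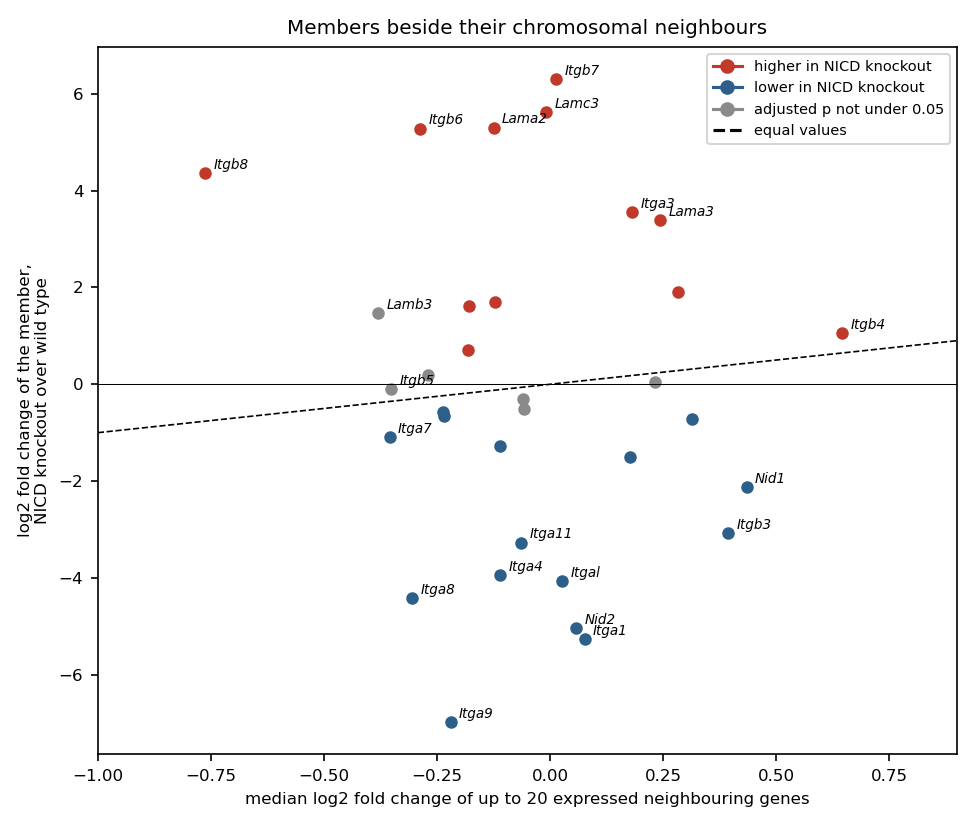
Log2 fold change of 33 of the 34 members, NICD knockout over wild type, in the authors' deposited table (vertical axis), against the median over up to 20 expressed neighbouring protein-coding genes (horizontal axis); the dashed line marks equal values. Among members with large changes, Itgb7, Itga9, Nid2 and Itga1 have neighbour medians between -0.22 and 0.08. Others with large changes have shifted neighbours of opposite sign, such as Itgb8 (-0.76), Itgb3 (0.39) and Nid1 (0.43). Itgb4 lies near the line.

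Genes that work with integrins were counted in 7 lists, each over all its tested genes. Of all genes tested, 25.1% fell and 25.4% rose. Of all genes with a mean of at least 100, 30.2% fell and 24.4% rose. Of 29 tested genes that activate integrins or link them to actin, 17 (58.6%) fell and 7 (24.1%) rose by the authors' deposited table (median -0.38). They include Tln2, a talin that binds beta chain tails, which fell 7.43-fold with 626.3 in NICD knockout and 4655 in wild type cells, and the adhesion linker gene Tns1, which fell 9.65-fold (authors' deposited table). The actin cross-linker gene Actn1 and the kindlin gene Fermt2 fell with log2 ratios of -1.85 and -1.38 by the authors' deposited table. With its neighbours' median of -0.85 subtracted, Actn1 was at -1.002. Of 21 tested signalling kinases and adaptors, 11 (52.4%) fell and 3 (14.3%) rose (median -0.47, authors' deposited table). Among them Nedd9, a docking protein at adhesions, the Src inhibitor gene Csk and the caveola gene Cav1 fell with log2 ratios of -1.75, -1.54 and -0.99, and the kinase gene Pak1 rose 2.73-fold by the authors' deposited table. With its neighbours' median of -0.66 subtracted, Cav1 was at -0.32 and still passed (adjusted p = 0.0244).

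Of 23 tested genes of other basement membrane proteins, 10 (43.5%) fell and 6 (26.1%) rose by the authors' deposited table (median -0.64). Of the 16 with a mean of at least 100, 9 (56.2%) fell and 4 (25.0%) rose (median -0.92). Col15a1, a basement membrane collagen gene, fell to 38.9 normalised counts in NICD knockout, against 30487 in wild type cells, in the authors' deposited table. The collagen IV genes Col4a1 and Col4a2, the network that nidogens join to laminin, fell 4.10-fold and 3.26-fold by the authors' deposited table, and the laminin-binding netrin gene Ntn4 fell 2.49-fold. Of 21 tested non-integrin laminin receptors and dystrophin complex genes, 7 (33.3%) fell and 3 (14.3%) rose by the authors' deposited table (median -0.19). In all 47.6% of that list was called, near the 50.5% of all genes. Dmd, which encodes dystrophin, fell 19.2-fold and Sgce 1.76-fold, while the dystrobrevin genes Dtna and Dtnb rose 174.2-fold and 3.59-fold by the authors' deposited table. Dtna was very low in wild type, at 2.10 normalised counts against 366.0 in the knockout (log2 ratio 7.44, SE 0.63, interval 6.21 to 8.68). With its neighbours' median of -0.71 subtracted, Sgce had -0.10 and did not pass (adjusted p = 0.557).

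Of 28 tested genes of other integrin ligands, 12 (42.9%) fell and 11 (39.3%) rose by the authors' deposited table (median -0.05). Fibronectin, the ligand of alpha 5 beta 1, is encoded by Fn1, which had 51273 normalised counts in NICD knockout and 134012 in wild type cells, a 2.61-fold fall in the authors' deposited table. Spp1, which encodes osteopontin, a ligand of alpha V beta 3, alpha 4 and alpha 9 integrins, rose 17.1-fold, with 29060 in the knockout and 1700 in wild type, in the authors' deposited table. The fibrillar collagen gene Col3a1 fell 9.50-fold and the latent TGF-beta binding protein gene Ltbp1 rose 5.18-fold by the authors' deposited table. Of 18 tested tetraspanins and other lateral partners, 7 (38.9%) fell and 4 (22.2%) rose (median -0.08, authors' deposited table). Ptgfrn, which associates with tetraspanins, rose 48.4-fold and the integrin-associated protein gene Cd47 rose 2.17-fold, while the syndecan gene Sdc1 fell 7.07-fold and Cd9 fell 2.22-fold by the authors' deposited table. The log2 ratio of Sdc1 was -2.82, and -2.09 with its neighbours subtracted. Of 16 tested integrin traffic genes, 7 (43.8%) rose and 3 (18.8%) fell (median 0.11, authors' deposited table). The endocytic adaptor gene Numb rose and its relative Numbl fell, with log2 ratios of 1.43 and -0.67, and the recycling adaptor gene Gga3 and the early endosome GTPase gene Rab5a had 0.58 and -0.36 in the authors' deposited table. The calls of Numbl, Gga3 and Rab5a were lost when their neighbours' medians of -0.28, 0.72 and -0.47 were subtracted, and Numb, with a neighbour median of 0.95, was then at 0.49 and still passed (adjusted p = 9.81e-04). As background, mesenchymal markers were abundant in both lines, with a summed fitted level of 141548 in the knockout and 283697 in wild type over 7 of 8 markers, of which 4 fell and 3 rose by the authors' deposited table. Of 8 endothelial markers, 6 were tested, with a summed level of 146.9 in the knockout and 217.0 in wild type, and 2 fell (authors' deposited table). With neighbours subtracted, the mesenchymal marker Vim (adjusted p = 0.150) and the endothelial marker Egfl7 (adjusted p = 0.362) did not pass. The mesenchymal markers Pdgfrb and Col1a1 fell 8.11-fold and 3.83-fold by the authors' deposited table. The endothelial marker Kdr fell 3.75-fold, with 8.41 normalised counts in the knockout and 31.5 in wild type. The calls of Pdgfrb, Col1a1 and Kdr were kept with neighbours subtracted.

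**Figure D5:**
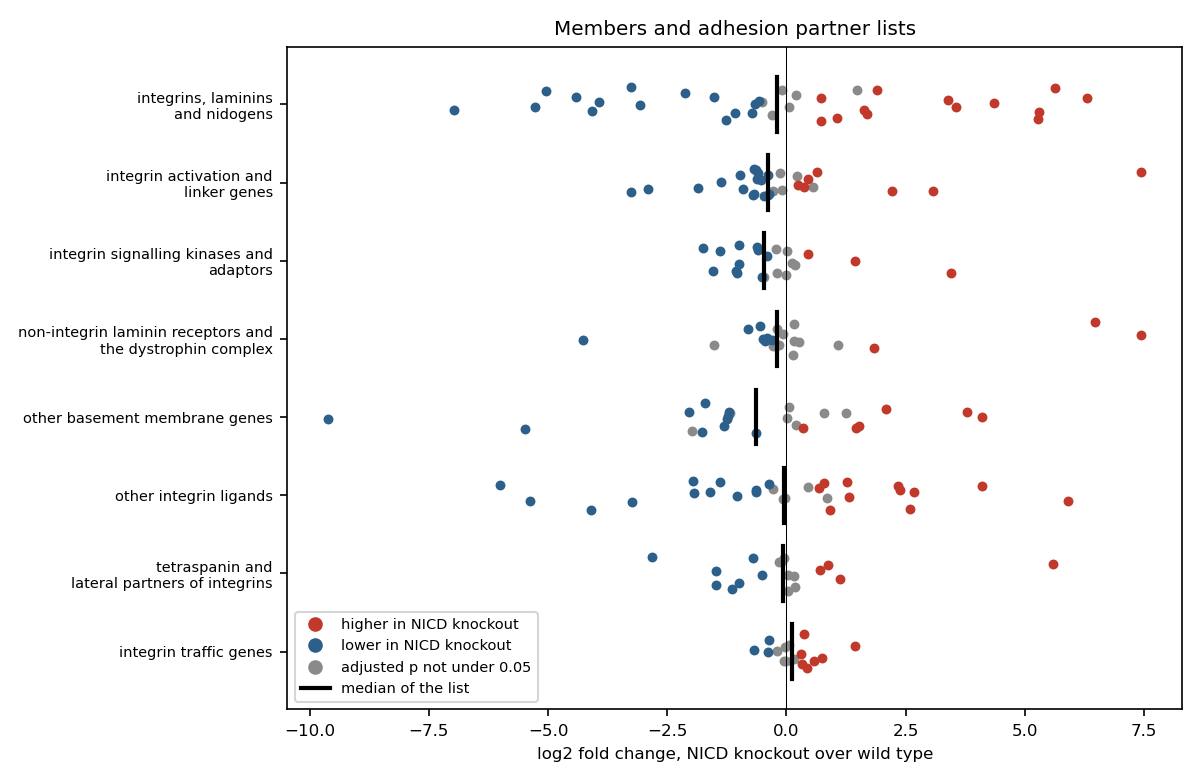
Log2 fold changes, NICD knockout over wild type, of the 34 members and of the genes of 7 adhesion partner lists in the authors' deposited table. Each point is a gene (red rose, blue fell, grey did not pass) with vertical jitter, and black bars are list medians, which run from -0.64 for other basement membrane genes to 0.11 for integrin traffic genes.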

How the data were processed

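Total RNA of 6 libraries, 3 of each genotype label, was sequenced, per the labels. Salmon, DESeq2 and the mouse build mm39 are listed in the submitters' processing notes. The sources used here give neither versions nor settings, nor any filter on low counts. The direction, NICD knockout over wild type, is read from the table's name alone. Per the file headers, the authors deposited for each gene a mean normalised count (a signal that is never negative), a log2 fold change with its SE on the log2 scale, a Wald statistic (a score), and a p-value with its adjusted form.

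No model was fitted here: all calls rest on DESeq2's Wald test as deposited by the authors. Recomputing the statistic, the p-values and the Benjamini-Hochberg adjustment over 14470 genes gave differences of at most 1.56e-13. Levels per group, 95% intervals (1.96 SE), the test against a 2-fold change, centred values and neighbour medians (up to 10 expressed genes on each side, mean of at least 100) were computed in Python 3.11.15 with numpy 2.4.6, pandas 2.3.3 and scipy 1.17.1. The test against a 2-fold change, centring and the neighbour step were tested on simulated data. The levels and the intervals were not. Chromosomes, gene order and transcript lengths came from GENCODE M21 (GRCm38), matched for 14456 of 14472 identifiers.

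All members enter the counts, and the values of 1 member are not reported here. The other members with a mean of at least 100 that passed are given with levels in both lines and a fold change or log2 ratio. Each also has at least 1 of its SE, its interval and its adjusted p. From each partner list the 4 called genes with the smallest p and a mean of at least 100 are named, and of the marker lists genes with the highest means, besides Coro1a and Ptprc, which were added after their values were seen. Members, roles and lists were chosen with earlier results of these data known, and no test of a list was made.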

Additional observations from a re-analysis of the deposited data

How the results depend on the processing

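The alternatives were an adjusted p under 0.01, Bonferroni adjustment, the test against a 2-fold change, centring on expressed genes (whose median log2 fold change was -0.05), a mean of at least 100 and subtraction of neighbours. The 13 members that rose became 7 under Bonferroni adjustment, 6 under the test against a 2-fold change and 5 with a mean of at least 100 only, where fewer members were tested. The 15 that fell became 9 under the test against a 2-fold change. The other alternatives gave 11 to 14 higher and 12 to 15 lower. The median over members was -0.69 for those with a mean of at least 100, and between -0.22 and -0.15 under the others. Centring changed the call of 1 member (Lamb3 passed) and subtraction of neighbours that of 4 (Lamc1 and Lamb3 passed, Itgav and Itgb4 did not). Subtraction of neighbours also turned Rab5a to 0.10 and Gga3 to -0.14, neither of which then passed. In the partner lists, a mean of at least 100 took the other integrin ligands that rose from 11 to 6. The other 13 list counts moved by at most 1.5 times. With levels per kilobase of coding sequence, chosen after seeing the data, the shares of Itga4, Itga1 and Itgb3 were 2.76%, 0.965% and 3.36% in the knockout and 16.5%, 14.5% and 19.0% in wild type, that of Itga7 in wild type was 9.29% in place of 13.99%, and the other 27 shares compared moved by less than 1.5 times. Depth per library is unknown, which limits the 12 members with a mean below 100 most. Leaving out replicates was not run, since it needs values per library. No paired analysis was possible because the calls come from the authors' table, which gives no values per library. The p numbers in the titles differ between the groups, their meaning is not stated, and replicates here are numbered in accession order only.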

Other observations

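The spread behind the fold changes was uneven over the members. Each SE was ranked among the 500 genes nearest in the lower of both groups' fitted levels. Itga3, Itga9, Lamb3, Nid1 and Itga6 had an SE above that of 98.6%, 95.4%, 94.6%, 94.2% and 94.2% of such genes in the authors' deposited table. Lamb2 lay at the other end, with an SE of 0.10 that was larger than that of 3.2% of such genes, and Itgb7 had an SE above that of 8.0%. Which libraries gave the wide spread of Itga3 and Itga9 was not tested, since values of single libraries were not used.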
